A study of Mus musculus with 12 samples.

Results

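The endoplasmic reticulum (ER) folding and unfolded protein response genes described here are 34 genes, taken by name from a gene list. The rule for membership used no values, but the list was drawn up with earlier results of these arrays known, so the counts below describe the list and do not test it. Each gene was represented by a probe set that carries its symbol alone in the array annotation, and where several did, by the brightest of them on the mean over the 12 arrays. All 34 of the 34 listed genes were measured in this way, among 19938 genes that have an own probe set and 35511 probe sets in all.

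RNA was taken from pancreatic islets of adult mice of the 129Sv background and hybridised to whole-transcript Affymetrix arrays, with 3 biological replicates and hence 3 arrays in each of 4 groups. The groups were pregnant Prlr-/- mice (P9.5, for pregnancy day 9.5), pregnant Prlr+/+ mice of the same day, non-pregnant (NP) Prlr-/- mice and non-pregnant Prlr+/+ mice. Prlr encodes the receptor for prolactin and placental lactogen, and the comparisons ask how ER genes differ between pregnant and non-pregnant islets with and without it. Pregnant mice without the receptor were given a progesterone pellet at the start of pregnancy, which the methods describe for this genotype only, so the pellet cannot be told apart from the genotype at P9.5, from pregnancy in the comparison of P9.5 with NP in Prlr-/- islets, or from the interaction of pregnancy and genotype. The symbol Prlr is on none of the probe sets, so the genotype labels could not be checked on the targeted gene itself.

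Proteins bound for secretion enter the ER through the Sec61 channel, lose their signal peptide there, and are folded by chaperones such as BiP and by disulfide isomerases. When unfolded protein builds up, the sensors IRE1, PERK and ATF6 start the unfolded protein response, which slows translation and raises the genes of folding, export and degradation, in part through the transcription factor XBP1. Beta cells make large amounts of proinsulin and are known to rely heavily on this machinery.

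The values are log2 levels from robust multichip analysis, rounded to 0.1, and the number of arrays limits their precision. Over all probe sets, 30 pairs of arrays from 1 stage had correlations of 0.972 to 0.988, and the 36 pairs that cross the stages had 0.931 to 0.969. Islet hormone genes were bright in every array, with Ins2 at 10.6 to 11.0 and Gcg at 13.4 to 13.9. Xist, the non-coding RNA of X inactivation, was at 3.8 in Prlr+/+ P9.5 replicate 2 and at 10 to 10.7 in the other 11 arrays, which the labels do not account for. Kdm5d, a gene of the Y chromosome, was at 4.2 in Prlr+/+ P9.5 replicate 2 and at 4.1 to 4.6 over the 12 arrays. The main counts of the 34 genes, and the counts of called genes in other lists that changed without this array, are therefore also given without it.

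A regulatory element known from these genes is the ER stress response element, read as CCAAT, 9 bases of any kind, and CCACG. It was searched on both strands in RefSeq promoter windows of the GRCm38.p6 build, each 300 bases long with 250 bases before the transcription start. Of the 34 genes, 26 had such a window. The exact element was found in 9 of these 26 (34.6%), against 37 of the 27025 genes in the RefSeq table (0.137% of genes and 0.119% of all windows). The elements are printed because they are the sequence that these 9 genes share, each 5′ to 3′ on the strand that reads CCAAT first, with the CCAAT and CCACG parts in capitals.
Hspa5: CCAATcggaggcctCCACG
Hsp90b1, distal copy: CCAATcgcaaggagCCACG
Hsp90b1, proximal copy: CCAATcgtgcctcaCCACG
Calr: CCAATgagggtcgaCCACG
Canx: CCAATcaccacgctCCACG
Creld2: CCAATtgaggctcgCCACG
Pdia6: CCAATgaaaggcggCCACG
Dnajc3: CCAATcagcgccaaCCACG
Syvn1: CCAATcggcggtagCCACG
Derl3: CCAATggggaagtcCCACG

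The element of Hspa5 lies at chr2:34772025-34772043, 65 to 47 bases before the start, and reads in the direction of the gene. Those of Hsp90b1 lie at chr10:86705638-86705656 and chr10:86705533-86705551, in opposite directions. The element of Pdia6 lies at chr12:17266491-17266509, that of Canx at chr11:50325800-50325818 and that of Dnajc3 at chr14:118937827-118937845, all in the direction of their gene. In Calr, Creld2 and Derl3 the element runs against the gene, at chr8:84847075-84847093, chr15:88819520-88819538 and chr10:75893242-75893260, and in Syvn1 it lies closest to the start, at chr19:6046532-6046550.

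The window before the Hspa5 start is shown whole to place its element, in capitals, among the surrounding bases on the plus strand, chr2:34771840-34772089.
Hspa5, upstream window: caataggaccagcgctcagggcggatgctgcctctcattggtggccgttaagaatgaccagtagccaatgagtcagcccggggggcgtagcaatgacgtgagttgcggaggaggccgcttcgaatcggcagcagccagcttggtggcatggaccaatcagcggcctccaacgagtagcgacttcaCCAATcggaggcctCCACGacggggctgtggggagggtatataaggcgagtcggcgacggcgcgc

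A second form, ERSE-II, read as ATTGG, 1 base of any kind, and CCACG, was found in 2 of the 26 windows, against 12 of all genes (0.0444%). These lie at chr8:94386377-94386387 for Herpud1, before the start, and at chr16:22857852-22857862 for Dnajb11, just after it. They are printed to show that the pair reads alike outside 1 base, with the spacer in lower case.
Herpud1: ATTGGgCCACG
Dnajb11: ATTGGcCCACG

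The motif TGACGTGG, known as a binding sequence for XBP1 and ATF6, was found in 0 of the 26 windows and in 0.714% of all genes. Manf, Hyou1, Atf6, Derl1, Sec61a1, Ssr2, Sec11c and Spcs3 had no window in the table.

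Genes of ER folding and entry were higher at P9.5 than in NP in islets of both genotypes. Of the 34 genes, 18 rose in Prlr-/- islets and 12 rose in Prlr+/+ islets at a fold change of at least 1.5 and a Benjamini-Hochberg adjusted p under 0.05 in limma. The cutoffs follow the methods, but p-values were adjusted over all probe sets in every comparison here, while the methods restrict the genotype comparison in pregnancy to a chosen set. None fell in either genotype. At an unadjusted p under 0.05, 29 were higher and 1, Ern1, was lower in Prlr-/- islets, and 27 were higher and 0 lower in Prlr+/+ islets. At that p, 7162 of all 35511 probe sets were higher and 8798 lower in Prlr-/- islets, and 6036 were higher and 6700 lower in Prlr+/+ islets. Over all probe sets, 7.44% were called higher and 7.09% lower in Prlr-/- islets, and 5.73% higher and 4.21% lower in Prlr+/+ islets. Among the 5711 probe sets at least as bright as the dimmest of the 34, 16.0% were called higher in Prlr-/- islets and 12.3% in Prlr+/+ islets. RNA was measured in whole islets, so fewer cells of a type and less RNA per cell cannot be told apart.

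The median log2 difference of the 34 genes was 0.63 in Prlr-/- and 0.48 in Prlr+/+ islets, while over all probe sets it was -0.07 in both and over the 5711 brighter ones it was 0.20 in Prlr-/- and 0.13 in Prlr+/+. Without the fold change minimum, 26 of the 34 passed in Prlr-/- islets, where 15.6% of all and 37.5% of the brighter probe sets did, and 24 passed in Prlr+/+ islets, where 11.5% of all and 27.6% of the brighter did. All 3 P9.5 arrays lay above all 3 NP arrays for 28 of the 34 genes in Prlr-/- islets and for 24 in Prlr+/+ islets, with 19.4% and 15.0% of all probe sets and 46.2% and 32.7% of the brighter ones so placed. Leaving out the Prlr+/+ P9.5 array with the low Xist level gave 18 genes higher in Prlr-/- and 11 in Prlr+/+ islets, the lost call being that of Dnajb9. In Prlr+/+ islets without this array, 17 passed without the fold change minimum, 24 were higher at an unadjusted p under 0.05, 24 did not overlap and the median was 0.43. Of all 35511 probe sets in that setting, 2777 passed upward without the fold change minimum, 5189 were higher at an unadjusted p under 0.05 and 6177 lay higher without overlap.

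**Figure D1:**
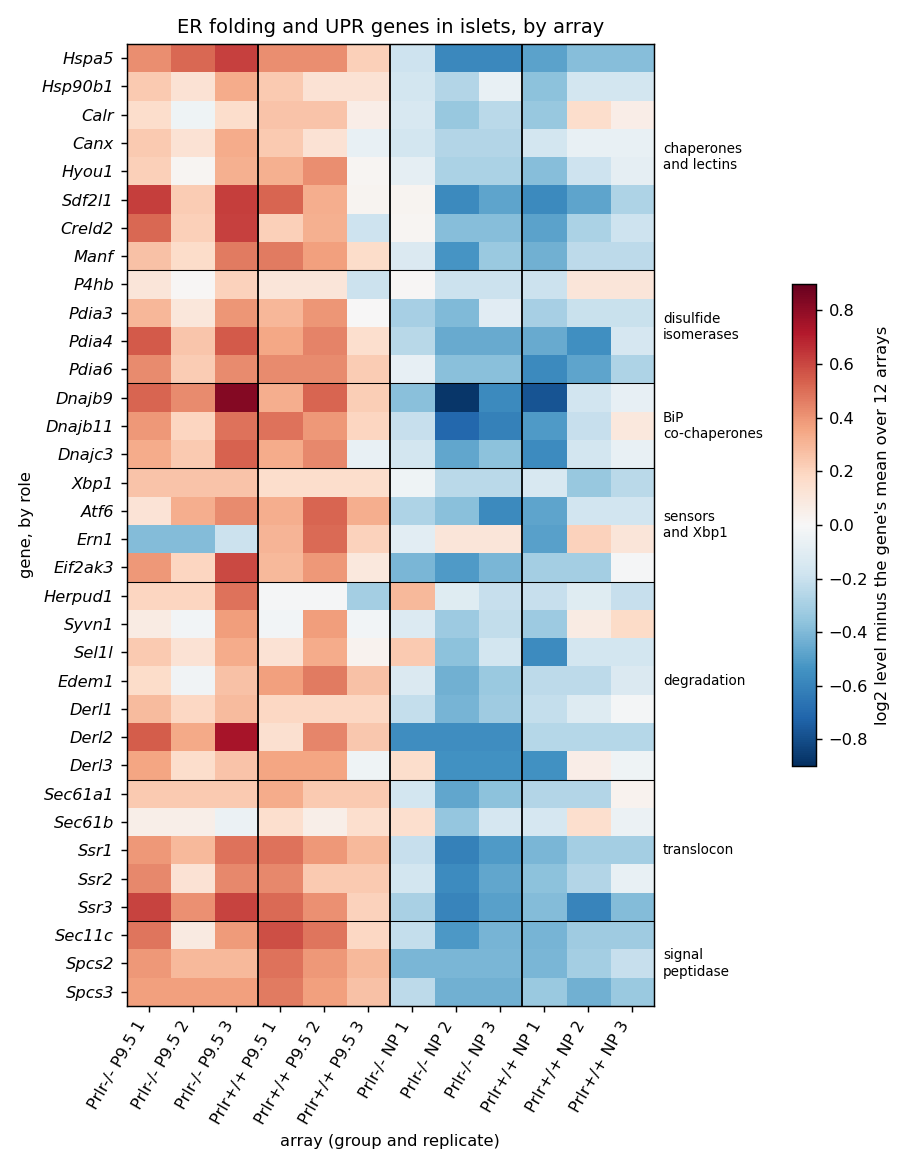
Heat map of the 34 genes (rows, grouped by role) in the 12 arrays (columns, grouped by genotype and stage), coloured by the log2 level minus the mean of that gene over the 12 arrays. The 6 P9.5 arrays on the left are mostly red and the 6 NP arrays mostly blue, and Ern1 is the row in which the Prlr-/- P9.5 arrays are blue.

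Of 8 chaperones and lectins, 4 rose in Prlr-/- and 3 in Prlr+/+ islets. Hspa5, which encodes BiP, the main chaperone of the ER and the protein that holds the 3 sensors inactive, measured 11.9, 12 and 12.1 in Prlr-/- P9.5 islets, against 11.3, 10.9 and 10.9 in Prlr-/- NP islets. In Prlr+/+ mice Hspa5 measured 11.9, 11.9 and 11.7 at P9.5, against 11.0, 11.1 and 11.1 in NP. The stages did not overlap in either genotype. Hspa5 rose by a log2 difference of 0.97 in Prlr-/- islets (1.95-fold, standard error 0.12, adjusted p = 0.000238 from limma) and of 0.77 in Prlr+/+ islets (standard error 0.12, adjusted p = 0.00147 from limma).

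Sdf2l1, a partner of BiP and its co-chaperones in the ER lumen, measured 10.2, 9.8 and 10.2 in Prlr-/- P9.5 islets, against 9.6, 9.0 and 9.1 in Prlr-/- NP islets, and 10.1, 9.9 and 9.6 in Prlr+/+ P9.5 islets, against 9.0, 9.1 and 9.3 in Prlr+/+ NP islets. It rose by 0.83 in Prlr-/- and 0.73 in Prlr+/+ islets on the log2 scale. Manf, a secreted ER protein that is known to protect beta cells, measured 8.8, 8.7 and 9.0 in Prlr-/- P9.5 islets, against 8.4, 8.0 and 8.2 in Prlr-/- NP islets, and 9.0, 8.9 and 8.7 in Prlr+/+ P9.5 islets, against 8.1, 8.3 and 8.3 in Prlr+/+ NP islets. Both genes rose in both genotypes, Manf by 0.63 in each.

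Creld2, a stress-inducible ER protein with isomerase-like activity, measured 9.7, 9.4 and 9.8 in Prlr-/- P9.5 islets, against 9.2, 8.8 and 8.8 in Prlr-/- NP islets, and 9.4, 9.5 and 9.0 in Prlr+/+ P9.5 islets, against 8.7, 8.9 and 9.0 in Prlr+/+ NP islets. It rose by 0.70 in Prlr-/- islets (adjusted p = 0.00776 from limma), and in Prlr+/+ islets, where replicate 3 at P9.5 met the highest NP array, the difference of 0.43 did not pass (adjusted p = 0.0803 from limma).

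The other 4 of this role stayed under the fold change minimum in both genotypes. Hsp90b1, the ER member of the HSP90 family, differed by 0.40 in each genotype, with adjusted p = 0.00908 in Prlr-/- and 0.013 in Prlr+/+ islets from limma. Canx, a membrane lectin that binds glycoproteins as they fold, differed by 0.47 in Prlr-/- and by 0.20 in Prlr+/+ islets. Hyou1, which drives nucleotide exchange on BiP, differed by 0.40 in Prlr-/- and by 0.47 in Prlr+/+ islets. Calr, the soluble partner of Canx, measured 10.6, 10.4 and 10.6 in Prlr-/- P9.5 islets, against 10.3, 10.1 and 10.2 in Prlr-/- NP islets, and 10.7, 10.7 and 10.5 in Prlr+/+ P9.5 islets, against 10.1, 10.6 and 10.5 in Prlr+/+ NP islets, so that the stages overlapped in Prlr+/+ only.

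Of the 4 disulfide isomerases, which form and reshuffle the disulfide bonds of secreted proteins, Pdia4 and Pdia6 rose in both genotypes. Pdia6 measured 11.6, 11.4 and 11.6 in Prlr-/- P9.5 islets, against 11.1, 10.8 and 10.8 in Prlr-/- NP islets, and 11.6, 11.6 and 11.4 in Prlr+/+ P9.5 islets, against 10.6, 10.7 and 10.9 in Prlr+/+ NP islets. Its log2 difference was 0.63 in Prlr-/- islets (adjusted p = 0.00247 from limma) and 0.80 in Prlr+/+ islets (adjusted p = 0.0012 from limma).

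Pdia4 measured 10.5, 10.2 and 10.5 in Prlr-/- P9.5 islets, against 9.7, 9.5 and 9.5 in Prlr-/- NP islets, and 10.3, 10.4 and 10.1 in Prlr+/+ P9.5 islets, against 9.5, 9.4 and 9.8 in Prlr+/+ NP islets. It rose by 0.83 in Prlr-/- and 0.70 in Prlr+/+ islets, and a dimmer probe set of the gene differed by 0.60 and 0.50 in these genotypes without passing (adjusted p = 0.0845 and 0.174 from limma). Pdia3, which works with Calr and Canx on glycoproteins, differed by 0.53 in Prlr-/- and 0.47 in Prlr+/+ islets, under the fold change minimum. P4hb, the founding member of the family, differed by 0.23 in Prlr-/- and by 0 in Prlr+/+ islets, and its stages overlapped in both.

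All 3 co-chaperones of the J-domain family, which stimulate the ATPase of BiP, rose in Prlr-/- islets, and 1 of the 3 rose in Prlr+/+ islets. Dnajb9, which also recruits BiP back to IRE1, had the largest difference of all 34 genes in Prlr-/- islets. It measured 10.8, 10.7 and 11.1 in Prlr-/- P9.5 islets, against 9.9, 9.4 and 9.7 in Prlr-/- NP islets, a log2 difference of 1.20 (2.30-fold, standard error 0.19, adjusted p = 0.000946 from limma). In Prlr+/+ mice it measured 10.6, 10.8 and 10.5 at P9.5, against 9.5, 10.1 and 10.2 in NP, a log2 difference of 0.70 (standard error 0.19, adjusted p = 0.0227 from limma). For Dnajb9 the stages did not overlap in either genotype, but its Prlr+/+ call was lost in 5 of 22 alternative settings, among them without Prlr+/+ NP replicate 1 and without the Prlr+/+ P9.5 array with low Xist, which left 0 of the 3 co-chaperones called in Prlr+/+ islets.

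Dnajb11, which joins BiP on unfolded substrates, measured 8.8, 8.6 and 8.9 in Prlr-/- P9.5 islets, against 8.2, 7.7 and 7.8 in Prlr-/- NP islets, and 8.9, 8.8 and 8.6 in Prlr+/+ P9.5 islets, against 7.9, 8.2 and 8.5 in Prlr+/+ NP islets. Dnajc3, known as an inhibitor of PERK as well as a co-chaperone, measured 11.4, 11.3 and 11.6 in Prlr-/- P9.5 islets, against 10.9, 10.6 and 10.7 in Prlr-/- NP islets, and 11.4, 11.5 and 11.0 in Prlr+/+ P9.5 islets, against 10.5, 10.9 and 11.0 in Prlr+/+ NP islets. Both rose in Prlr-/- islets, by 0.87 and 0.70 on the log2 scale. In Prlr+/+ islets they differed by 0.57 and 0.50, under the fold change minimum, with adjusted p = 0.0339 for Dnajb11 and 0.0478 for Dnajc3 from limma.

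**Figure D2:**
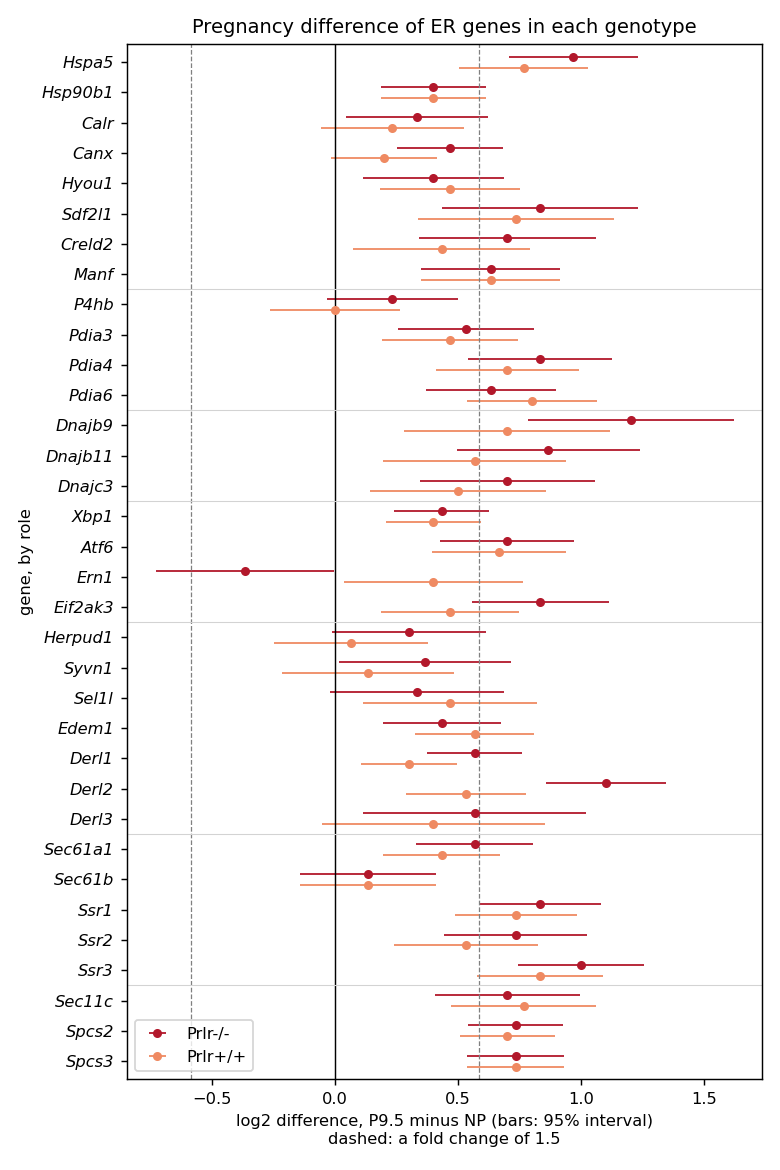
Log2 difference of P9.5 minus NP for each of the 34 genes, grouped by role, in Prlr-/- (dark red) and Prlr+/+ islets (orange), with 95% intervals from limma and dashed lines at a fold change of 1.5. Points lie to the right of 0 in both genotypes for 32 genes, Ern1 lies to the left in Prlr-/- only, and Dnajb9, Derl2, Ssr3 and Hspa5 reach furthest right in Prlr-/-.

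Of the 3 sensors and Xbp1, 2 rose in Prlr-/- and 1 in Prlr+/+ islets. Atf6, the sensor that is cut in the Golgi and enters the nucleus, measured 9.3, 9.5 and 9.6 in Prlr-/- P9.5 islets, against 8.9, 8.8 and 8.6 in Prlr-/- NP islets, and 9.5, 9.7 and 9.5 in Prlr+/+ P9.5 islets, against 8.7, 9.0 and 9.0 in Prlr+/+ NP islets. It rose by 0.70 in Prlr-/- islets (adjusted p = 0.00176 from limma) and by 0.67 in Prlr+/+ islets (adjusted p = 0.00358 from limma). Eif2ak3, which encodes PERK, the kinase that slows translation, measured 8.9, 8.7 and 9.1 in Prlr-/- P9.5 islets, against 8.1, 8.0 and 8.1 in Prlr-/- NP islets, and 8.8, 8.9 and 8.6 in Prlr+/+ P9.5 islets, against 8.2, 8.2 and 8.5 in Prlr+/+ NP islets. It rose by 0.83 in Prlr-/- islets and differed by 0.47 in Prlr+/+ islets, under the fold change minimum (adjusted p = 0.0227 from limma).

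Ern1, which encodes IRE1, the kinase and RNase that splices the Xbp1 mRNA, was the 1 gene of the 34 with a negative difference in Prlr-/- islets. It measured 8.9, 8.9 and 9.1 in Prlr-/- P9.5 islets, against 9.2, 9.4 and 9.4 in Prlr-/- NP islets, and 9.6, 9.8 and 9.5 in Prlr+/+ P9.5 islets, against 8.8, 9.5 and 9.4 in Prlr+/+ NP islets. The Prlr-/- P9.5 arrays lay below those of Prlr-/- NP and of Prlr+/+ P9.5 without overlap, while the Prlr+/+ stages overlapped. The log2 difference between the stages was -0.37 in Prlr-/- islets (standard error 0.17, adjusted p = 0.107 from limma) and 0.40 in Prlr+/+ islets (standard error 0.17, adjusted p = 0.105 from limma), and neither passed. Without Prlr+/+ NP replicate 1, the lowest Ern1 array of its group, the Prlr+/+ difference was 0.18.

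Xbp1, the transcription factor made from the spliced mRNA, measured 10.0 in all 3 Prlr-/- P9.5 arrays, against 9.7, 9.5 and 9.5 in Prlr-/- NP islets, and 9.9 in all 3 Prlr+/+ P9.5 arrays, against 9.6, 9.4 and 9.5 in Prlr+/+ NP islets. The log2 differences of 0.43 in Prlr-/- and 0.40 in Prlr+/+ islets had adjusted p = 0.00377 and 0.00841 from limma and stayed under the fold change minimum. The probe set gives 1 level for the gene and does not separate its spliced form.

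**Figure D3:**
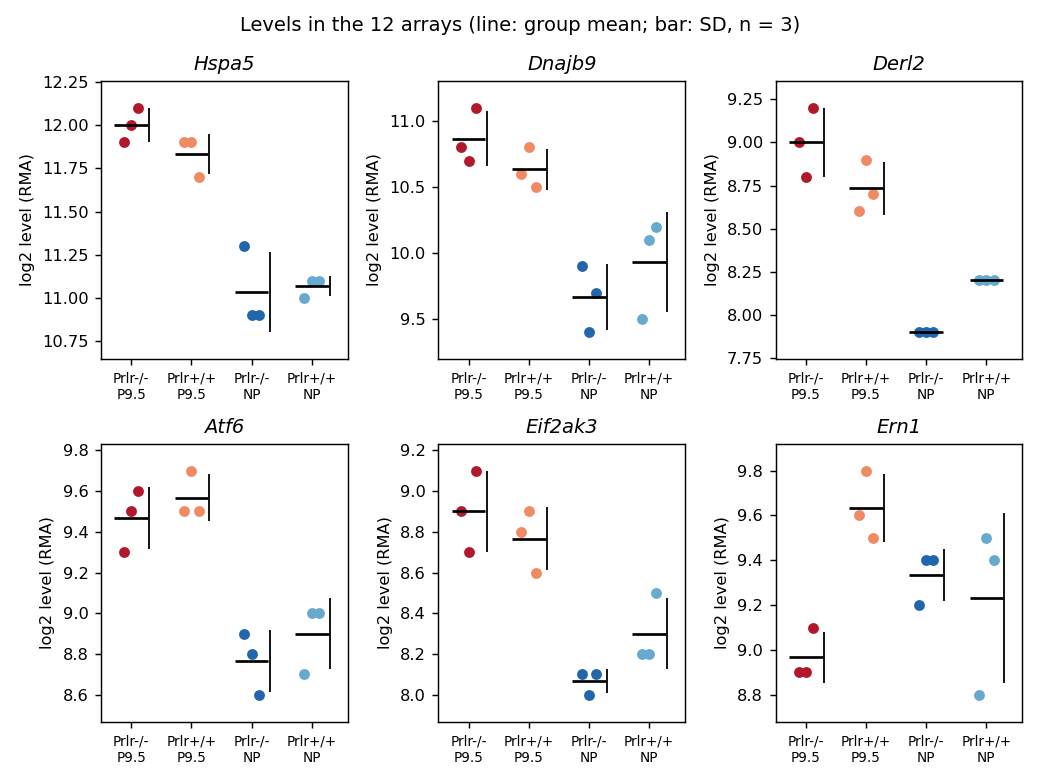
Log2 level of Hspa5, Dnajb9, Derl2, Atf6, Eif2ak3 and Ern1 in each array (points), with the mean (line) and SD (bar, n = 3) of the 4 groups and a separate scale for each gene. In the first 5 genes both P9.5 groups lie above both NP groups, while for Ern1 the Prlr-/- P9.5 arrays, at 8.9 to 9.1, are the low group.

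Of 7 genes that recognise, move out or ubiquitinate misfolded protein, 1 rose in Prlr-/- and 0 rose in Prlr+/+ islets, with 5 and 4 higher at an unadjusted p under 0.05, and the median log2 difference of the 7 was 0.43 in Prlr-/- and 0.40 in Prlr+/+. The one that rose was Derl2, a membrane protein of the channel through which misfolded proteins leave the ER. It measured 9.0, 8.8 and 9.2 in Prlr-/- P9.5 islets and 7.9 in all 3 Prlr-/- NP arrays, a log2 difference of 1.10 (2.14-fold, standard error 0.11, adjusted p = 0.000118 from limma). In Prlr+/+ mice Derl2 measured 8.6, 8.9 and 8.7 at P9.5 and 8.2 in all 3 NP arrays, a log2 difference of 0.53 under the fold change minimum (adjusted p = 0.00633 from limma). Stages did not overlap for Derl2 in either genotype.

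Its relatives Derl1 and Derl3 differed by 0.57 each in Prlr-/- islets, and in Prlr+/+ islets Derl1 differed by 0.30 and Derl3 by 0.40. Edem1, a lectin that extracts misfolded glycoproteins, measured 9.0, 8.8 and 9.1 in Prlr-/- P9.5 islets, against 8.7, 8.4 and 8.5 in Prlr-/- NP islets, and 9.2, 9.3 and 9.1 in Prlr+/+ P9.5 islets, against 8.6, 8.6 and 8.7 in Prlr+/+ NP islets. Its differences of 0.43 in Prlr-/- and 0.57 in Prlr+/+ islets had adjusted p = 0.0113 and 0.00428 from limma, with no overlap of stages but under the fold change minimum.

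Sel1l, the adaptor of the ubiquitin ligase Syvn1, measured 9.7, 9.6 and 9.8 in Prlr-/- P9.5 islets, against 9.7, 9.1 and 9.3 in Prlr-/- NP islets, and 9.6, 9.8 and 9.5 in Prlr+/+ P9.5 islets, against 8.9, 9.3 and 9.3 in Prlr+/+ NP islets. Herpud1, which gathers the ligase complex, measured 10.4, 10.4 and 10.7 in Prlr-/- P9.5 islets, against 10.5, 10.1 and 10.0 in Prlr-/- NP islets, and 10.2, 10.2 and 9.9 in Prlr+/+ P9.5 islets, against 10.0, 10.1 and 10.0 in Prlr+/+ NP islets. Neither gene passed in either genotype, and for Herpud1 the Prlr+/+ difference was 0.07. Syvn1 itself differed by 0.37 in Prlr-/- and 0.13 in Prlr+/+ islets.

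The 3 signal peptidase subunits, which belong to the enzyme that removes signal peptides, rose in both genotypes, between 0.70 and 0.77 on the log2 scale. Spcs3 measured 11.0 in all 3 Prlr-/- P9.5 arrays, against 10.4, 10.2 and 10.2 in Prlr-/- NP islets, and 11.1, 11.0 and 10.9 in Prlr+/+ P9.5 islets, against 10.3, 10.2 and 10.3 in Prlr+/+ NP islets. It rose by 0.73 in each genotype, with adjusted p = 0.000238 in Prlr-/- and 0.000542 in Prlr+/+ islets from limma.

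Spcs2 measured 10.1, 10.0 and 10.0 in Prlr-/- P9.5 islets and 9.3 in all 3 Prlr-/- NP arrays, and 10.2, 10.1 and 10.0 in Prlr+/+ P9.5 islets, against 9.3, 9.4 and 9.5 in Prlr+/+ NP islets. Sec11c, a catalytic subunit, measured 9.3, 8.9 and 9.2 in Prlr-/- P9.5 islets, against 8.6, 8.3 and 8.4 in Prlr-/- NP islets, and 9.4, 9.3 and 9.0 in Prlr+/+ P9.5 islets, against 8.4, 8.5 and 8.5 in Prlr+/+ NP islets. For these subunits too, every P9.5 array lay above every NP array of the same genotype.

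Of the 5 translocon genes, Ssr1 and Ssr3 rose in both genotypes, and Ssr2 passed the threshold in Prlr-/- islets and not in Prlr+/+. All 3 encode subunits of the translocon-associated protein complex, which sits at the Sec61 channel. Ssr3 measured 10.9, 10.7 and 10.9 in Prlr-/- P9.5 islets, against 10.0, 9.7 and 9.8 in Prlr-/- NP islets, and 10.8, 10.7 and 10.5 in Prlr+/+ P9.5 islets, against 9.9, 9.7 and 9.9 in Prlr+/+ NP islets. It rose by 1.00 in Prlr-/- islets (adjusted p = 0.000178 from limma) and by 0.83 in Prlr+/+ islets (adjusted p = 0.000864 from limma), the largest of the 34 genes in Prlr+/+ islets.

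Ssr1 measured 9.7, 9.6 and 9.8 in Prlr-/- P9.5 islets, against 9.1, 8.7 and 8.8 in Prlr-/- NP islets, and 9.8, 9.7 and 9.6 in Prlr+/+ P9.5 islets, against 8.9, 9.0 and 9.0 in Prlr+/+ NP islets. Ssr2 measured 10.9, 10.6 and 10.9 in Prlr-/- P9.5 islets, against 10.3, 9.9 and 10.0 in Prlr-/- NP islets, and 10.9, 10.7 and 10.7 in Prlr+/+ P9.5 islets, against 10.1, 10.2 and 10.4 in Prlr+/+ NP islets. Both were separated by stage in both genotypes, although the Ssr2 difference of 0.53 in Prlr+/+ islets stayed under the fold change minimum. Sec61a1, the pore itself, differed by 0.57 in Prlr-/- and 0.43 in Prlr+/+ islets, also under it.

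Sec61b, a small subunit of the pore, measured 8.0, 8.0 and 7.9 in Prlr-/- P9.5 islets, against 8.1, 7.6 and 7.8 in Prlr-/- NP islets, and 8.1, 8.0 and 8.1 in Prlr+/+ P9.5 islets, against 7.8, 8.1 and 7.9 in Prlr+/+ NP islets. Its stages overlapped and its difference was 0.13 in each genotype, and 2 dimmer probe sets of the gene, at 0.30 and 0.37 in Prlr-/- and 0.37 each in Prlr+/+ islets, did not pass either.

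All 12 genes called in Prlr+/+ islets were among the 18 called in Prlr-/- islets, which is 66.7% of the Prlr-/- calls and 100% of the Prlr+/+ calls. The 6 called in Prlr-/- only were Creld2, Dnajb11, Dnajc3, Eif2ak3, Derl2 and Ssr2. Across the 34 genes the difference was larger in Prlr-/- for 24, larger in Prlr+/+ for 6 and equal for 4. Of the 5711 brighter probe sets, it was larger in Prlr-/- for 3555, larger in Prlr+/+ for 1851 and equal for 305. Of all 35511 probe sets, these counts were 16050, 17548 and 1913. The median of the Prlr-/- difference minus the Prlr+/+ difference was 0.12 over the 34 genes and 0.10 over the brighter probe sets, so the lean was shared with these. The pregnancy differences of the genotypes share no arrays and correlated across the 34 genes at Pearson's r = 0.664 and Spearman's rho = 0.767, as a description over genes that are not independent. Whether the differences themselves were unequal was tested by the interaction of pregnancy and genotype, and 0 of the 34 genes passed (0.0788% of all probe sets did). The interaction was 0.57 for Derl2 (95% interval 0.22 to 0.91, adjusted p = 0.272 from limma), 0.50 for Dnajb9 (adjusted p = 0.579), 0.37 for Eif2ak3 (adjusted p = 0.533) and -0.77 for Ern1 (95% interval -1.28 to -0.25, adjusted p = 0.318). At an unadjusted p under 0.05, Derl2 and Ern1 were the 2 genes of the 34 that passed, while 1513 of all 35511 probe sets did so upward and 1985 downward. Without the low-Xist array 0 passed, with 2 upward and 1 downward at an unadjusted p under 0.05. Of all probe sets, 1749 were upward and 2310 downward at that p in this setting.

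Loss of the receptor was then compared within each stage. At P9.5, 0 of the 34 genes differed between the genotypes by the thresholds, where 0.231% of all probe sets did, and the median log2 difference of the 34 was 0.03. The 95% interval lay within a fold change of 1.5 in either direction for 29 of the 34, and for 21 of them the estimate was within 0.1 of 0. The other 5 intervals allow a larger difference, the widest bounds being -1.03 for Ern1 and 0.71 for Herpud1. At an unadjusted p under 0.05, Herpud1 and Derl2 passed upward and Ern1 downward, while 991 of all 35511 probe sets did so upward and 934 downward. Without the low-Xist array, 0 of the 34 and 63 of all probe sets passed, beside 82 with it, and the median of the 34 was 0.08. At an unadjusted p under 0.05, 3 of the 34 were then higher and 1 lower, and 973 of all probe sets were higher and 1052 lower.

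For Ern1 at P9.5, the log2 difference of Prlr-/- minus Prlr+/+ was -0.67 (adjusted p = 0.298 from limma, standard error 0.17). It passed at an adjusted p of 0.0436 from limma when only probe sets with the symbol of 1 gene were fitted, and at 0.041 without Prlr+/+ NP replicate 1. With any other single array left out it did not pass. Without the low-Xist array the Ern1 difference was -0.58 (adjusted p = 0.645 from limma), and without Prlr-/- P9.5 replicate 1 it was -0.63 (adjusted p = 0.722). Herpud1 differed by 0.40, Creld2 by 0.33 and Derl2 by 0.27 in the other direction, and Edem1 by -0.23. Herpud1 and Xbp1 lay higher and Ern1 lower in Prlr-/- islets with no overlap of arrays, 3 of 34 genes, where 6.08% of all probe sets did not overlap in either direction. With 2 Prlr+/+ P9.5 arrays, after the low-Xist array was left out, 4 genes lay higher and 2 lower without overlap. Of all 35511 probe sets, 2335 lay higher and 2580 lower in that setting, beside 1123 and 1035 with all arrays.

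In non-pregnant islets, 0 of the 34 genes differed between Prlr-/- and Prlr+/+ mice (0.101% of all probe sets did), and the median was -0.08. The 3 largest differences downward were -0.30 for Derl2 and for Dnajb11 and -0.27 for Dnajb9, and the 3 largest upward were 0.20 for Sel1l and 0.17 for Herpud1 and for Pdia6, none of which passed. Derl2, at 7.9 in all 3 Prlr-/- and 8.2 in all 3 Prlr+/+ arrays, and Eif2ak3 did not overlap between genotypes, where 11.7% of all probe sets did not. Intervals lay within a fold change of 1.5 for 31 of the 34. At an unadjusted p under 0.05, Derl1 and Derl2 passed, both lower in Prlr-/- islets. Of all 35511 probe sets, 2534 were higher and 1842 lower at that p. Without the low-Xist array, which belongs to neither NP group but adds to the estimate of spread, 0 of the 34 passed. In that setting 46 of all probe sets passed, beside 36 with it. At an unadjusted p under 0.05, 0 of the 34 were then higher and 1 lower, and 2562 of all probe sets were higher and 1817 lower.

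**Figure D4:**
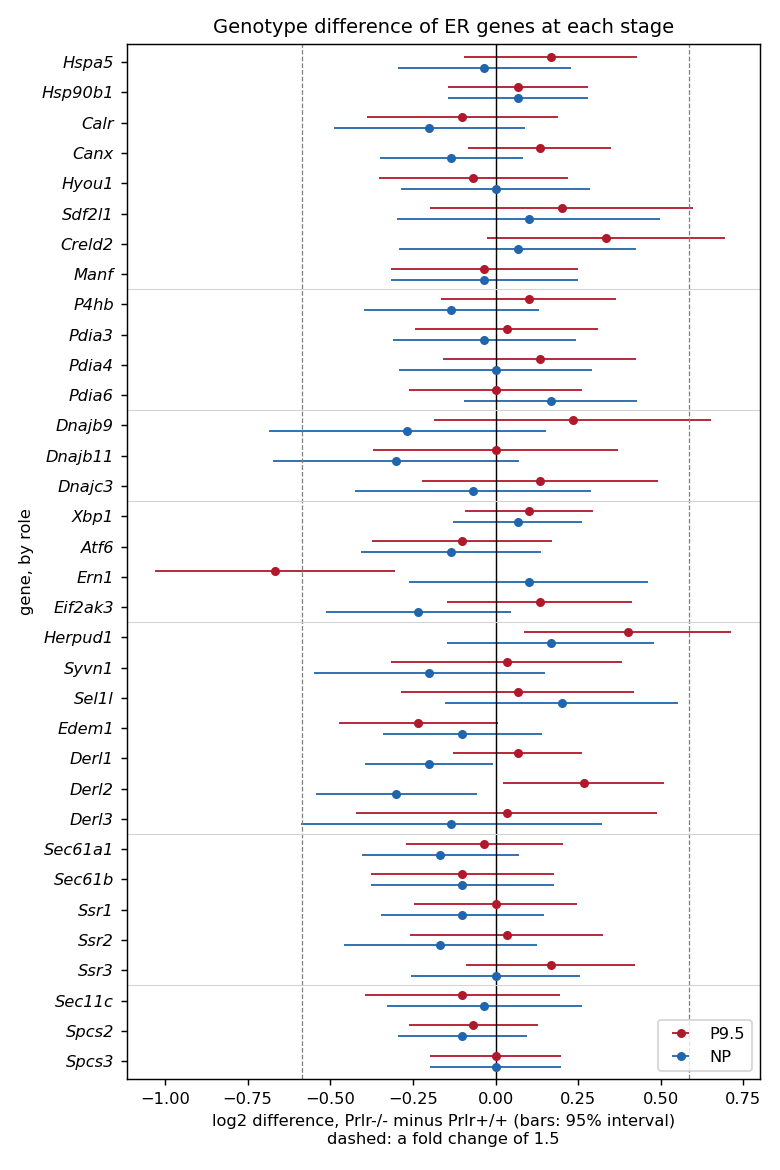
Log2 difference of Prlr-/- minus Prlr+/+ for the 34 genes, grouped by role, at P9.5 (red) and in NP (blue), with 95% intervals from limma and dashed lines at a fold change of 1.5. Most points lie near 0 at both stages, and Ern1 at P9.5, at -0.67, is the point outside the dashed lines.

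Arrays of 1 group also shifted together across the 34 genes. Their mean level was 9.96 to 10.19 in Prlr-/- P9.5, 9.90 to 10.12 in Prlr+/+ P9.5, 9.36 to 9.64 in Prlr-/- NP and 9.40 to 9.66 in Prlr+/+ NP arrays, so all 6 P9.5 arrays lay above all 6 NP arrays. Within groups, Prlr-/- P9.5 replicate 2 and Prlr+/+ P9.5 replicate 3 were lowest alone for 25 of the 34 genes each. Prlr-/- NP replicate 1 was highest alone for 28 of them, and Prlr+/+ NP replicate 1 lowest alone for 25.

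Genes of acinar cells, the enzyme-secreting cells around the islets that are also rich in ER, were read as a marker list. Of 22 measured of 27 listed acinar markers, 13 fell and 1 rose at P9.5 in Prlr-/- islets (median log2 difference -1.32), and 0 fell and 1 rose in Prlr+/+ islets (median -0.50, with 0 lower at an unadjusted p under 0.05). Their mean per array was 9.77, 8.86 and 8.29 in Prlr-/- P9.5 and 8.98, 8.70 and 9.81 in Prlr+/+ P9.5, against 10.63, 9.65 and 10.05 in Prlr-/- NP and 9.34, 9.86 and 9.51 in Prlr+/+ NP. The groups thus overlapped for the acinar mean, and its part in the differences of the ER genes was not tested. The defining markers Cpa1 and Cela1 were present in every array, at 10.9 to 13.0 and 8.9 to 12.1.

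**Figure D5:**
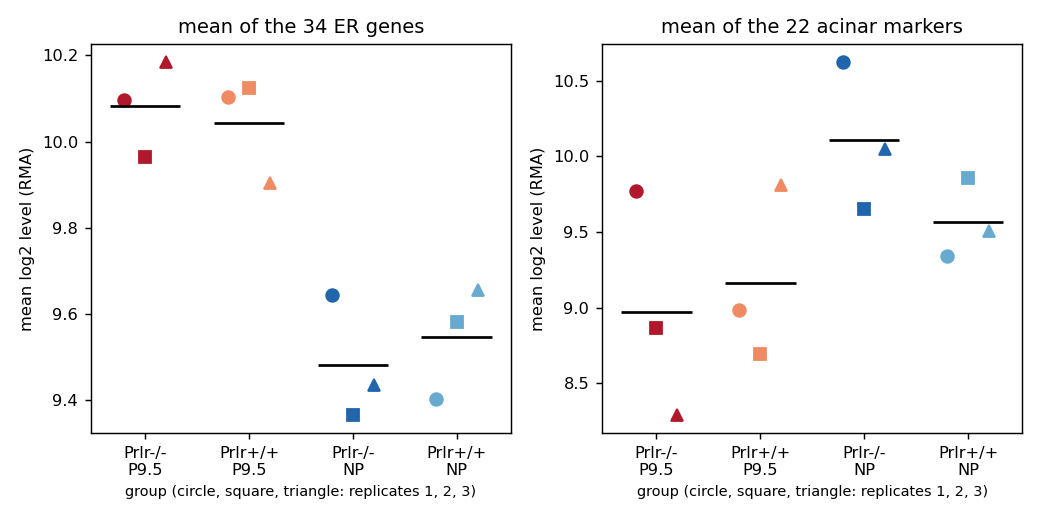
Mean log2 level per array of the 34 ER genes (left) and of the 22 acinar markers (right) in the 4 groups, with replicates 1, 2 and 3 as circle, square and triangle and lines at group means. The ER genes separate P9.5 from NP arrays, while the acinar mean overlaps between stages and is highest, at 10.63, in Prlr-/- NP replicate 1.

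Islet hormone and beta cell genes had 0 called at P9.5 in Prlr-/- islets and 2 higher and 2 lower in Prlr+/+ islets, of 14 measured. Of 14 immune and plasma cell genes, 1 was higher in Prlr-/- and 1 lower in Prlr+/+ islets, and Jchain, a plasma cell gene, was at 3.6 to 4.3 in all arrays. At an unadjusted p under 0.05, 2 of the 14 were higher and 6 lower in Prlr-/- islets. In Prlr+/+ islets 2 were higher and 1 lower at that p. Ptprc, the common leukocyte marker, was at 5.6 to 6.0 in Prlr-/- P9.5 and 5.8 to 5.9 in Prlr+/+ P9.5 islets, against 5.1 to 5.4 in Prlr-/- NP and 5.2 to 5.4 in Prlr+/+ NP islets.

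Of 12 endothelial genes, Emcn and Tek were called higher in Prlr-/- islets, and Plvap and Eng were called lower in Prlr+/+ islets, with medians of 0.05 in Prlr-/- and -0.22 in Prlr+/+. In the interaction 0 of the 12 passed, and 6 were above 0 at an unadjusted p under 0.05. Without the low-Xist array 0 passed and 9 of the 12 were above 0 at that p. Of all 35511 probe sets, 1513 were above 0 at that p with the array and 1749 without it. Pecam1, the common endothelial marker, was at 7.6 to 7.7 in Prlr-/- P9.5 and 7.3 to 7.8 in Prlr+/+ P9.5 islets, against 7.2 to 7.4 in Prlr-/- NP and 7.5 to 7.8 in Prlr+/+ NP islets. The mean of the 12 per array was 7.75 to 7.82 in Prlr-/- P9.5 and 7.55 to 7.82 in Prlr+/+ P9.5, against 7.60 to 7.66 in Prlr-/- NP and 7.81 to 7.92 in Prlr+/+ NP islets, so that the stages did not overlap in Prlr-/-. Of 10 ductal genes measured of 12 listed, 0 were called higher, 1 was lower in Prlr-/- (Muc1) and 2 were lower in Prlr+/+ islets (Krt7 and Krt8). Of 12 stromal genes, 0 were called in either genotype, with 2 higher and 1 lower in Prlr-/- and 0 higher and 4 lower in Prlr+/+ islets at an unadjusted p under 0.05. Without the low-Xist array, the lower calls in Prlr+/+ islets were 3 endothelial genes, with Tie1 added, and 1 ductal gene, with Krt8 lost, and 14 acinar markers were lower in Prlr-/- islets. The part of these cells in the ER gene differences was not tested.

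Further genes of the secretory pathway, from lists that hold none of the 34, were read from the same fit. In targeting and translocation, 8 of 14 measured genes rose in Prlr-/- and 4 in Prlr+/+ islets, among them the signal recognition particle subunits Srp72 (0.97 in Prlr-/-, 0.70 in Prlr+/+) and Srp9 (0.73 in Prlr-/-, 0.93 in Prlr+/+). In N-glycosylation, 6 of 15 rose in Prlr-/- and 4 in Prlr+/+ islets, led by the oligosaccharyltransferase subunits Ostc (1.17 in Prlr-/-, 0.87 in Prlr+/+), Stt3a (0.97 in Prlr-/-, 0.80 in Prlr+/+) and Magt1 (0.87 in Prlr-/-, 0.97 in Prlr+/+). Disulfide formation and other folding had 9 of 26 higher in Prlr-/- and 7 in Prlr+/+ islets, among them the reductase Dnajc10 (0.97 in Prlr-/-, 0.67 in Prlr+/+), Erp44, which retrieves unassembled proteins (0.97 in Prlr-/-, 0.67 in Prlr+/+), and the oxidase Ero1a (0.93 in Prlr-/-, 0.67 in Prlr+/+). None of these lists had a gene called lower. At an unadjusted p under 0.05, targeting and translocation had 12 higher and 1 lower in Prlr-/- islets. N-glycosylation had 13 higher and 0 lower there, and disulfide formation and other folding had 19 higher and 1 lower. The lowest difference of the disulfide formation and other folding list was -1.17, in Prlr-/- islets. In Prlr+/+ islets 0 genes of each list were lower at that p. Without the low-Xist array, targeting and translocation had 2 higher in Prlr+/+ islets, with Srp68 and Srp72 lost, and disulfide formation and other folding had 5, with Txndc12 and Erp44 lost.

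Export in COPII vesicles had 7 of 20 higher in Prlr-/- and 3 in Prlr+/+ islets, with the coat subunit Sec23b at 1.03 in Prlr-/- and 0.73 in Prlr+/+ and the coat GTPase Sar1a at 0.77 in each. Of 17 further degradation genes, 3 rose in Prlr-/- and 1 in Prlr+/+ islets. Selenos, which links the channel to the ATPase Vcp, rose by 0.73 in Prlr-/- and 0.83 in Prlr+/+ islets, and without the low-Xist array Ube2g2 passed as well in Prlr+/+ islets. These shares can be read against the 7.44% and 5.73% of all probe sets called higher in Prlr-/- and Prlr+/+ islets, or the 16.0% and 12.3% of the brighter ones.

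Downstream of PERK, of 15 measured genes of the PERK and ATF4 branch, 0 rose in Prlr-/- and 1 rose in Prlr+/+ islets, and 0 fell in either. At an unadjusted p under 0.05, 2 were higher and 2 lower in Prlr-/- islets, and 2 higher and 4 lower in Prlr+/+ islets. The median log2 difference of the 15 was 0.07 in Prlr-/- and -0.07 in Prlr+/+ islets. Atf4, the transcription factor of the branch, differed by 0.53 in Prlr-/- and 0.50 in Prlr+/+ islets (adjusted p = 0.00391 and 0.00808 from limma), under the fold change minimum. Its known targets Ddit3, which encodes CHOP, Trib3 and Chac1 measured 0.13, -0.07 and -0.13 in Prlr-/- and 0.27, -0.47 and -0.47 in Prlr+/+ islets as log2 differences. The gene that rose was Nupr1, a stress-induced nuclear protein, by 1.00 in Prlr+/+ islets (adjusted p = 0.0135 from limma), against 0.07 in Prlr-/- islets.

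Of 13 other transcription factors and regulators of the response, 2 rose in each genotype. The median log2 difference of the 13 was 0.07 in Prlr-/- and -0.20 in Prlr+/+ islets. At an unadjusted p under 0.05, 3 were higher and 1 lower in Prlr-/- islets, and 2 higher and 5 lower in Prlr+/+ islets. Bhlha15, a factor of secretory cells that is also on the acinar list and was the 1 gene of that list to rise, differed by 0.93 in Prlr-/- and 0.77 in Prlr+/+ islets, and the membrane-bound factor Creb3 by 0.60 in Prlr-/- and 0.73 in Prlr+/+ islets. Map3k5, a kinase downstream of IRE1, was called lower in Prlr+/+ islets only without the low-Xist array. No gene of these further pathway lists passed between the genotypes at either stage or in the interaction.

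Set beside the promoter elements, the 11 genes with either element had a median log2 difference of 0.57 in Prlr-/- and 0.40 in Prlr+/+ islets, and 5 and 2 of them rose. The 15 with a window but no element had medians of 0.73 in Prlr-/- and 0.53 in Prlr+/+ islets, and 8 and 6 rose, among the 6 Dnajb9, whose call was lost without the low-Xist array. Hspa5 and Pdia6 carry the element and rose in both genotypes, while Canx, Calr, Syvn1 and Derl3 carry it and did not pass in either. Dnajb9, Ssr3 and Spcs2 rose in both without the exact letters in their windows. A further 38 genes of the RefSeq table hold either element, 19 of which were measured, and of these 2 rose in Prlr-/- islets (Alg12 by 0.73 and Krtcap2 by 0.60) and 0 in Prlr+/+ islets. Over all probe sets, 7.44% were called higher in Prlr-/- and 5.73% in Prlr+/+ islets. The median log2 difference of the 19 was -0.03 in each genotype. A match of letters describes the window and says nothing of binding.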

How the data were processed

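Islet RNA of 12 mouse samples, 3 in each of 4 groups set by the labels, was measured on 1 array per sample. The authors computed the deposited log2 values with robust multichip analysis in aroma.affymetrix, in which background is corrected, probes are quantile normalized and each probe set is summarised as 1 log2 value. The table is rounded to steps of 0.1, and 0 of its columns were left unused. Symbols came from the platform annotation, which names 1 gene for 21789 probe sets, several for 1621 and none for 12101. The build on which the probe sets were placed is not given in the sources used here.

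One linear model with 4 group means was fitted to all 35511 probe sets in R 4.3.3 with limma 3.58.1 (lmFit and eBayes), with Benjamini-Hochberg adjustment over all of them. Probe sets were called at a fold change of at least 1.5 and an adjusted p under 0.05. With 3 arrays against 3, limma's estimate of spread over all groups was used, since few degrees of freedom remain otherwise. The labels call the samples biological replicates and do not say whether animals were pooled, so p-values measure the spread between these samples. Values in every array were given for every member called, for the 3 largest differences in each direction and comparison with ties, and for the sensors, Xbp1 and Hspa5, while the other members were given by their differences. From the other pathway lists, called genes were named by size, up to 3 per list and direction, and from the marker lists the defining markers Ins2, Gcg, Cpa1, Cela1, Ptprc and Pecam1. Atf4, Ddit3, Trib3, Chac1, Jchain, Xist, Kdm5d, Alg12, Krtcap2, the called endothelial and ductal genes and the genes whose call changed without the low-Xist array fall outside this rule and were chosen after their values were seen. The members, taken by name, and the other lists were chosen with earlier results of these data known. Promoter windows came from the RefSeq table for GRCm38.p6, and figures were drawn with Python 3.11.15 and matplotlib 3.10.9. The alternatives were a fit of the groups compared only, a replicate block, each array left out, 2 filters on probe sets, centring of arrays on their medians, quantile normalization, array weights, a robust variance prior that follows intensity, no fold change minimum and the mean over probe sets of a gene.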

Additional observations from a re-analysis of the deposited data

How the results depend on the processing

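Of 22 alternative settings, 12 of which left out 1 array, 0 reversed a called result. In all 22, 11 of the 18 genes called in Prlr-/- islets and 5 of the 12 called in Prlr+/+ islets (Hspa5, Pdia6, Ssr1, Ssr3 and Sec11c) kept their call. Leaving out 1 array gave 16 (without Prlr-/- NP replicate 2) to 21 genes higher in Prlr-/- (without Prlr-/- NP replicate 1) and 9 (without Prlr+/+ NP replicate 1) to 16 in Prlr+/+ islets (without Prlr+/+ NP replicate 3). Calls lost with 1 array left out were those of Manf (without Prlr-/- P9.5 replicate 3 or NP replicate 2) and Pdia6 (without Prlr-/- NP replicate 2 or 3) in Prlr-/- islets. In Prlr+/+ islets they were those of Sdf2l1, Manf and Dnajb9 (each without Prlr+/+ P9.5 replicate 1), Dnajb9 also without P9.5 replicate 2, and Manf, Dnajb9 and Atf6 (each without Prlr+/+ NP replicate 1). With 1 array left out, the median log2 differences were 0.56 to 0.73 in Prlr-/- and 0.43 to 0.58 in Prlr+/+ islets. Between genotypes at P9.5, 0 to 1 genes were lower with 1 array left out. That gene was Ern1, called without Prlr+/+ NP replicate 1, and it was also the 1 gene lower when only probe sets with the symbol of 1 gene were tested.

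Quantile normalization of the deposited values lowered the counts to 11 genes higher in Prlr-/- and 6 in Prlr+/+ islets, with medians of 0.48 and 0.35. Under it, Ern1 at P9.5 against NP in Prlr-/- islets was at -0.53 with an adjusted p of 0.0302, under the fold change minimum. Median centring shifted the median of all probe sets by 0.17 in Prlr-/- and 0.07 in Prlr+/+ islets and gave 25 and 16 genes higher, with a median of 0.80 in Prlr-/-. It moved the share of calls that were higher to 76.2% in Prlr-/-, beside 51.2% without it, and to 70.2% in Prlr+/+, beside 57.7%. Centring moves every gene of a comparison by the same amount, so the median in Prlr-/- islets less that shift is 0.63 by construction. Without a fold change minimum, 24 genes were higher in Prlr+/+ islets. The cause of these changes was not tested. With the replicate number of the labels as a replicate block, 18 genes were higher in Prlr-/- and 12 in Prlr+/+ islets, and the block changed no count of the 34 genes. The numbers were not taken as pairs, since 7 of 18 same-numbered pairs of arrays had deviations that correlated over 0.1 (range -0.11 to 0.23) and 1 array lay nearest to the array of its own number in all other groups. Over all probe sets, the calls between genotypes were few and changed with the setting: 36 in NP (0 with only these groups fitted, 2 over probe sets with 1 symbol, and 24 to 172 with 1 array left out), 82 at P9.5 (39 with only these groups fitted, and 47 to 85), and 28 for the interaction (63 without the dimmest 40%, 96 over probe sets with 1 symbol, 45 with quantile normalization, 81 with array weights, and 16 to 38).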
